A study of Homo sapiens with 4 samples.

Results

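The genes of the 2-5A system were followed 24 hr after transfection in A549, a cell line established from a human lung carcinoma. They are the 4 oligoadenylate synthetase (OAS) genes OAS1, OAS2, OAS3 and OASL, the inhibitor gene ABCE1 and the 2-5A phosphodiesterase gene PDE12. These 6 genes were taken by symbol from the 58812 genes listed in the count files, and all 6 had enough reads to be tested. Wild type cells received 1 μg of pCMV6-Entry, the empty plasmid (2 libraries), or of the plasmid SAMD9-Myc-DDK, which encodes tagged SAMD9, an interferon-inducible antiviral protein (2 libraries). Cells of both groups were therefore transfected with plasmid DNA, no untransfected cells were compared, and the only comparison is SAMD9 against empty vector. Whether the 2 libraries of a group came from separate cultures is not stated, so p-values cover the spread between these libraries, which may be technical.

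OAS enzymes bind double-stranded RNA and join ATP into short chains called 2-5A. 2-5A activates the endonuclease RNase L, which cuts cellular and viral RNA and thereby slows protein synthesis and virus growth. The OAS genes are classical interferon-stimulated genes, most of them with low expression in unstimulated epithelial cells. OAS1 carries a single OAS unit, OAS2 and OAS3 carry repeated units, and OASL is related in sequence, makes no 2-5A and instead assists the RNA sensor RIG-I. On the opposing side, ABCE1 was first described as an RNase L inhibitor and is also the factor that splits ribosomes after termination, and PDE12 degrades 2-5A and trims tails of mitochondrial RNA.

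OAS1 (ENSG00000089127, chromosome 12, 112906777 to 112932185), OAS3 (ENSG00000111331, 112938352 to 112973249) and OAS2 (ENSG00000111335, 112978395 to 113011723) lie in this order on the plus strand (GRCh38, coordinates of the deposited files). OASL (ENSG00000135114) lies apart on the minus strand of chromosome 12, at 121020292 to 121039242. ABCE1 (ENSG00000164163) is on chromosome 4, 145097932 to 145129179, and PDE12 (ENSG00000174840) on chromosome 3, 57556276 to 57566844, both on the plus strand. The values are gene totals over all listed exons, so splice forms were not separated.

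The sequences just upstream of OAS1 and OAS3 are shown because these were the only OAS genes with RefSeq promoter entries. OAS2 and OASL, which also rose, were not searched. RefSeq promoter entries (GRCh38.p14) were found for 4 of the 6 genes, OAS1, OAS3, ABCE1 and PDE12, and the 250 bases before each RefSeq start were searched on both strands. Capitals mark matches to GAAANNGAAA, the core of the interferon-stimulated response element, or to the longest runs of bases that both upstream regions hold, AAACGAAACC and GAAACGAAAC, which overlap each other. The OAS1 stretch is chr12:112906932-112906961, the last 30 bases before the start, and the OAS3 stretches are chr12:112938252-112938351 (222 to 123 bases before the start) and chr12:112938444-112938473 (the last 30 bases), all on the plus strand.
OAS1, proximal: cctcccttctgagGAAACGAAACCaacagc
OAS3, distal: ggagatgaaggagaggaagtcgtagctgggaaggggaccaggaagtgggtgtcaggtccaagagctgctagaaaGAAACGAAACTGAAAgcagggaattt
OAS3, proximal: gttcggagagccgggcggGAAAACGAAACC

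The run AAACGAAACC ended 7 bases before the OAS1 start and 1 base before the OAS3 start, and it occurred in 0.0285% of the 35116 promoter entries searched over the same length. GAAACGAAAC occurred in 0.0484% of them. GAAANNGAAA occurred in 3.02%, with 2 matches upstream of OAS3 and none upstream of OAS1, ABCE1 or PDE12. The shorter AANNGAAA, a half-site of interferon regulatory factors, occurred in 20.3% of entries, 2 times upstream of OAS1 (1 inside the matches above and 1 apart from them, 52 to 45 bases before the start and not printed), 3 times upstream of OAS3 and not upstream of ABCE1 or PDE12. Both proximal stretches lie inside the first exon that the deposited files list, because the RefSeq starts are 185 bases (OAS1) and 122 bases (OAS3) further in. The runs were picked after the sequences were seen, as the longest that both regions hold, so their presence in both was fixed by the choice. Other runs of the same length were not counted, so the percentages do not show that these runs are rare for their length. A match is a description of letters, not a measured binding site.

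The libraries held 29301854 and 31434339 counts in controls (empty vector), against 39670083 and 30750029 under SAMD9. SAMD9 itself was counted 444 and 400 times in controls, against 220123 and 184350 times under SAMD9, in accord with the labels. The 10 epithelial and A549 markers summed to 6212 and 6862 CPM (counts scaled to library size) with empty vector and 7949 and 7578 CPM with SAMD9. Most of this came from KRT8, KRT18 and AKR1B10, which were abundant in every library. Some others were low, with EPCAM at a mean of 6.38 and 5.57 CPM (empty vector, then SAMD9) and KRT19 at 10, 8, 8 and 5 counts. The surfactant genes SFTPB and SFTPC had 20, 12, 38 and 2, and 10, 10, 2 and 0 counts. KRT8 (1.32-fold), CDH1 (1.85-fold) and MUC1 (2.52-fold) were called higher with SAMD9, and 0 were called lower. Leukocyte markers summed to between 2.06 and 3.19 CPM and endothelial markers to between 0.508 and 0.734 CPM. Most of the leukocyte sum came from CD14 (88, 67, 99 and 60 counts), while PTPRC had 0, 0, 0 and 3 counts. Fibroblast markers summed to 1.60 and 2.84 CPM with empty vector and 6.22 and 6.32 CPM with SAMD9, with DCN at 0 in all 4 libraries and COL1A1, called higher, at 45, 70, 194 and 160 counts, and their part in the results was not tested.

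All 4 OAS genes rose with SAMD9, by 11.1-fold for OAS3, 16.8-fold for OAS1, 218-fold for OASL and 360-fold for OAS2. ABCE1 fell by 23.2%, and PDE12 did not pass the test. So 4 of the 6 genes were called higher and 1 lower, where 15.3% of the 19814 genes tested were called higher and 12.2% lower (27.5% in all; quasi-likelihood F-test of edgeR, p adjusted by Benjamini-Hochberg, threshold 0.05). Of all calls, 55.7% were higher with TMM normalisation and 25.9% with library totals, under which the median gene shifted from -0.01 to -0.19 on the log2 scale. In these bulk samples more RNA per cell and more expressing cells cannot be told apart.

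**Figure D1:**
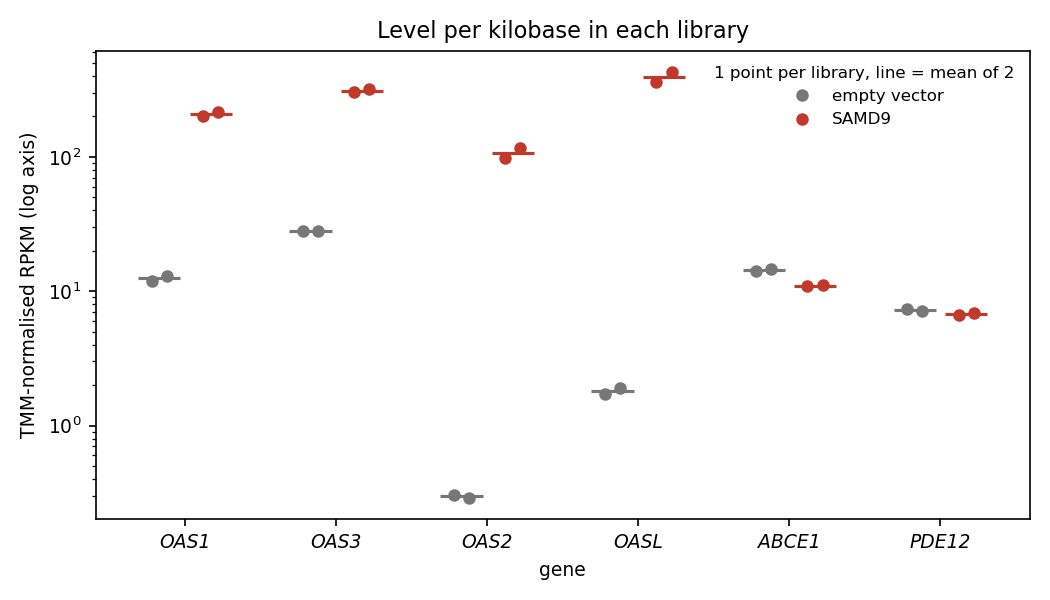
Level of each gene per kilobase of listed exon length (TMM-normalised RPKM, log axis) in the 2 empty vector libraries (grey) and the 2 SAMD9 libraries (red), with a line at the mean of each group. The OAS genes reach 98.7 to 429 RPKM with SAMD9 from 0.291 to 28.1 with empty vector, while ABCE1 and PDE12 stay between 6.60 and 14.6.

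OAS2 had the largest change of the family. Control libraries gave it 60 and 61 counts, SAMD9 libraries 23058 and 20920. After TMM scaling this was 1.87 ± 0.0672 CPM in controls, against 675 ± 79.5 CPM with SAMD9 (SD, n = 2 each). The groups were far apart, with both SAMD9 libraries high and both empty vector libraries near the low end of the measured range. The log2 fold change was 8.49 (SE 0.11, edgeR adjusted p = 3.2e-24), the 27th highest of 19814 genes.

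OASL, the member that makes no 2-5A, was counted 125 and 150 times in controls, against 31656 and 28658 times under SAMD9. That corresponded to 4.24 ± 0.344 and 925 ± 108 CPM (SD, n = 2 each). The SAMD9 libraries differed from each other by far less than from the empty vector libraries. At 7.77 on the log2 scale (SE 0.10, adjusted p = 3.1e-24 by edgeR), its rise ranked 47th.

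OAS1 was already expressed in the control cells. Its counts were 1470 and 1686 in controls, against 29570 and 24279 under SAMD9, or 48.7 ± 2.40 and 820 ± 39.0 CPM (SD, n = 2 each). Both SAMD9 libraries lay above both empty vector libraries, and the log2 fold change was 4.07 (SE 0.07, edgeR adjusted p = 1.7e-22, ranked 210th). Of its listed exon bases, 2.35% (92 bases) are shared with AC004551.1, an antisense gene across the OAS cluster that had 2, 5, 115 and 64 counts.

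OAS3, the longest family member, had the highest control level. Controls held 7246 and 7715 of its reads, SAMD9 libraries 93021 and 75260, more counts than any other OAS gene in every library. The levels were 231 ± 0.754 and 2562 ± 95 CPM (SD, n = 2 each), and the 2 control libraries were nearly equal. Its rise of 3.47 on the log2 scale (SE 0.06, adjusted p = 9.2e-23 by edgeR) was the smallest of the family and ranked 291st.

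ABCE1, the inhibitor and ribosome recycling factor, moved the other way. Controls held 2761 and 3063 of its reads, SAMD9 libraries 2554 and 1995, which after scaling were 88.2 and 91.5 CPM against 68.5 and 69.7 CPM. The groups did not overlap, and the gap between them was larger than the spread within either. The log2 fold change was -0.38 (SE 0.07, 95% interval -0.53 to -0.23, edgeR adjusted p = 0.00023), and with library totals it was -0.57 (edgeR adjusted p = 8.9e-07). ABCE1 shares 4.41% of its listed exon bases with OTUD4 on the opposite strand, which rose by 1.35 on the log2 scale (SE 0.06), and 7.49% with ANAPC10, also opposite, which stood at 0.29 (SE 0.19, adjusted p = 0.29 by edgeR). Matched on both strands, 24.1% of the 31-base words of ABCE1 transcripts occur in other genes of GENCODE 29, the highest share of the 6. The other members had 0.299% to 6.44%. The ABCE1 share includes words found in ANAPC10 (6.32%) and OTUD4 (3.42%), so it partly repeats the exon overlaps above. The part of these overlaps in the ABCE1 value was not tested.

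PDE12, the 2-5A phosphodiesterase, was counted 2054 and 2147 times in controls, against 2203 and 1756 times under SAMD9. Its scaled levels were 65.7 and 64.2 CPM against 59.1 and 61.3 CPM, with both SAMD9 libraries slightly below both controls. The difference of -0.11 on the log2 scale (SE 0.08, adjusted p = 0.32 by edgeR) was not called, and its 95% interval ran from -0.27 to 0.05. With library totals in place of TMM it was -0.30 and called lower (edgeR adjusted p = 0.0031), so its call depended on the scaling.

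**Figure D2:**
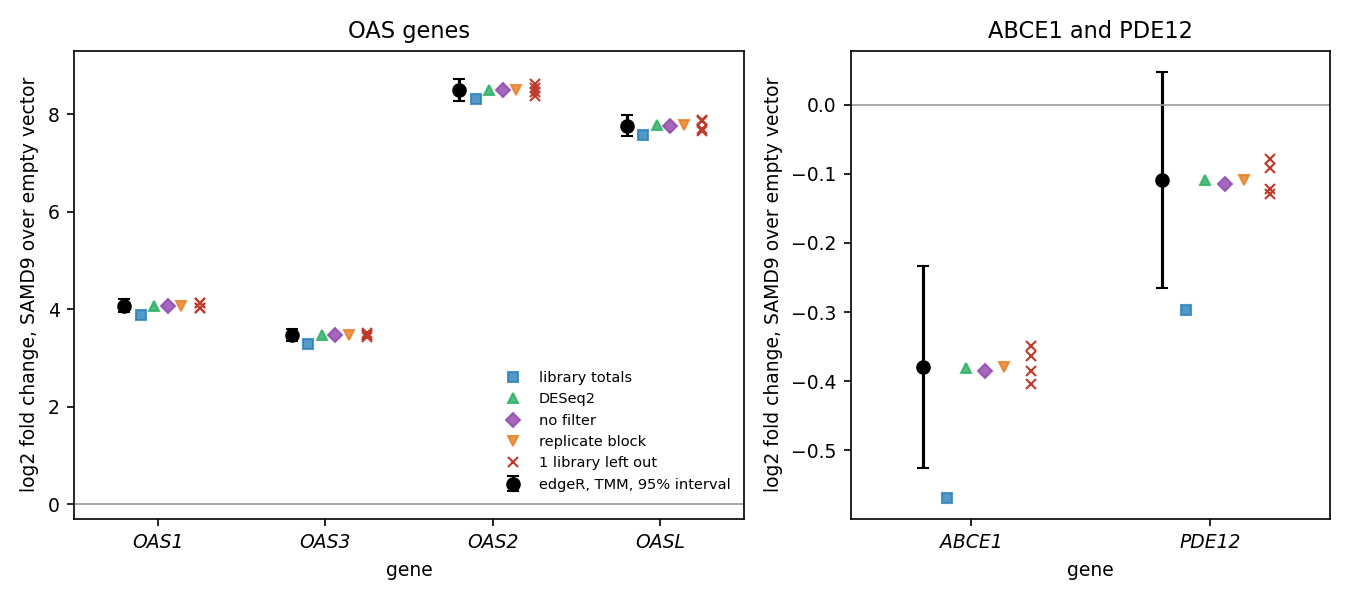
Log2 fold change of SAMD9 over empty vector for the 4 OAS genes (left) and for ABCE1 and PDE12 (right, finer scale), with the TMM estimate and its 95% interval in black and each alternative setting beside it. The OAS estimates stay between 3.28 and 8.61, ABCE1 between -0.57 and -0.35, and the interval of PDE12 spans 0 although the library-total value lies at -0.30.

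Compared per kilobase, the order of the genes differed between the groups. With empty vector OAS3 was highest at 28.0 ± 0.0914 RPKM, followed by ABCE1 at 14.3 ± 0.370, OAS1 at 12.5 ± 0.614, PDE12 at 7.25 ± 0.118, OASL at 1.81 ± 0.147 and OAS2 at 0.299 ± 0.0107 (SD, n = 2 each). With SAMD9 OASL was highest at 396 ± 46.0 RPKM, followed by OAS3 at 310 ± 11.5, OAS1 at 210 ± 9.96, OAS2 at 108 ± 12.7, ABCE1 at 11.0 ± 0.135 and PDE12 at 6.73 ± 0.179 (SD, n = 2 each). No pair of neighbours in either order had overlapping libraries. In the control cells ABCE1 thus stood above every OAS gene but OAS3, and in the SAMD9 cells it stood below all 4.

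The OAS genes together rose 24.1-fold per kilobase, from 42.6 ± 0.659 to 1024 ± 80.2 RPKM (SD, n = 2), and from 0.0304% and 0.0306% of all counts to 0.447% and 0.485%. Their composition changed. OAS3 made up 66.7% and 64.9% of the summed RPKM with empty vector and 31.3% and 29.5% with SAMD9. OASL went from 4.06% and 4.46% to 37.6% and 39.7%, and OAS2 from 0.727% and 0.676% to 10.2% and 10.8%. OAS1 took 28.5% and 29.9% with empty vector and 21.0% and 20.1% with SAMD9. For each of these genes the libraries of the groups did not overlap, but with 2 against 2 libraries an exact permutation test cannot give a two-sided p below 0.33.

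Shares by raw count gave another leading gene, since OAS3 has 8251 listed exon bases and OASL 2336. By count, OAS3 stayed first with SAMD9 at 51.5% of OAS reads and OASL had 18.5%. OAS1 then held 17.03% with empty vector and 16.5% with SAMD9.

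**Figure D3:**
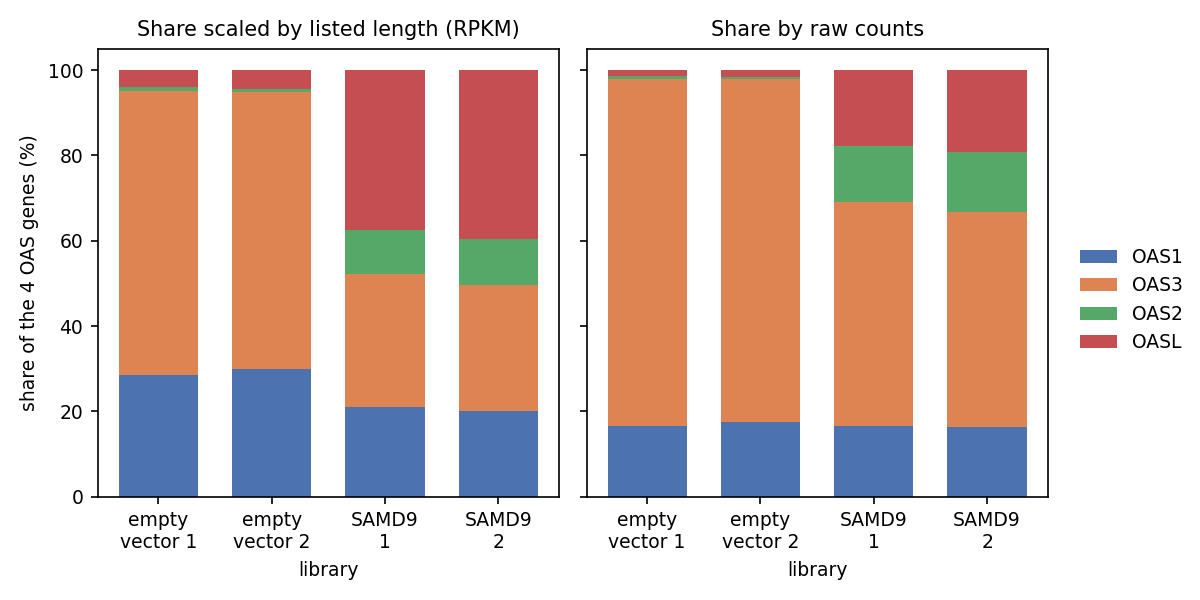
Share of each OAS gene in the family total in each of the 4 libraries, from RPKM (left) and from raw counts (right). OASL grows from 4.06% and 4.46% to 37.6% and 39.7% of the length-scaled total, and OAS3 remains the largest share by raw count.

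Within a library the OAS genes could be set directly against ABCE1 or against each other, which removes the scaling between libraries. Per kilobase, OAS1 was at 0.853 and 0.882 times ABCE1 with empty vector and at 18.6 and 19.5 times with SAMD9. OAS2 went from 0.0109 and 0.0104 times OAS3 to 0.327 and 0.366 times, and OASL from 0.0609 and 0.0687 times OAS3 to 1.20 and 1.34 times. OAS1 changed relative to OAS3 by less, from 0.428 and 0.461 times to 0.671 and 0.681 times. PDE12 was at 0.521 and 0.491 times ABCE1 with empty vector and at 0.604 and 0.616 times with SAMD9. In each of these 5 ratios both SAMD9 libraries lay above both controls, and the exact permutation p was 0.33, the smallest the design allows.

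The genes most alike to each OAS gene were sought by Euclidean distance between log2(CPM + 1) values over the 4 libraries, after subtracting each gene's mean, among the 13047 tested and named genes whose mean log2 CPM reached 1. This scale compresses differences of genes with few counts. For OAS1 they were DTX3L, LGALS9 and PSMB9 (distances 0.0515 to 0.121), and for OAS3 CX3CL1, RUFY4 and GBP1P1 (0.0518 to 0.0616), of which RUFY4 and GBP1P1 had 0 counts in both controls. For OAS2 they were IFNL3, RSAD2 and IFNL2 (0.0472 to 0.444), and for OASL GBP4, CCL5 and IFNL3 (0.113 to 0.423). With 4 libraries in 2 groups, a small distance says mainly that the size of the group difference was alike on this scale. The fitted log2 fold changes could differ more. They were 4.06 to 5.06 for the OAS1 matches (OAS1 4.07) and 6.31 to 11.4 for the OAS3 matches (OAS3 3.47). For the OAS2 matches they were 9.01 to 11.6 (OAS2 8.49) and for the OASL matches 9.19 to 10.5 (OASL 7.77).

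Several other genes of RNA sensors rose beside the synthetases. Of 12 genes for double-stranded RNA-binding sensors and effectors, edgeR called 9 higher and 0 lower (also 0 lower with DESeq2 or at an unadjusted p under 0.05), where 15.3% of all genes were higher and 12.2% lower. The median log2 fold change was 2.13, against -0.01 over all genes tested. RIGI, the gene of the sensor RIG-I, went from 17.5 ± 0.222 to 981 ± 39.4 CPM, and IFIH1, the gene of the sensor MDA5, from 4.63 ± 0.417 to 456 ± 30.7 CPM (SD, n = 2 each). ZC3HAV1 rose 16.1-fold, and although it was placed in this list, its product, the zinc finger antiviral protein, is known for binding CpG dinucleotides in single-stranded RNA. EIF2AK2, named after its value was seen because its product PKR is the other enzyme switched on by double-stranded RNA, rose 4.96-fold (log2 fold change 2.31, SE 0.06, edgeR adjusted p = 1.2e-18). The 3 that were not called, PRKRA, DHX9 and TARBP2, named after their values were seen, lay between -0.09 and 0.02 on the log2 scale. The signs in this range changed with the setting. With library totals 2 genes of this list were called lower, beside 5653 of all 19814 genes.

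Some genes of interferon signalling also rose. Of 11 genes of interferon receptors, their kinases and the transcription factors they act through, 6 were called higher, 1 lower and 4 neither way (median 0.75), beside 15.3% higher and 12.2% lower among all genes. IRF7 rose 30.9-fold, IRF1 22.4-fold and STAT2 17.4-fold, all with a log2-scale SE of 0.07 or 0.08. IRF9, which joins STAT2 in the complex ISGF3 and is named after its value was seen, rose 3.93-fold, although 48.4% of the IRF9 exon bases are shared with AL136295.5 on the same strand. The gene called lower was the receptor kinase JAK1, named after its value was seen, at -0.26 (SE 0.06, edgeR adjusted p = 0.0023), a call that ended without SAMD9 replicate 1 (adjusted p = 0.056). The remaining rises of this list, also named after their values were seen, were the receptor genes IFNLR1 (3.45-fold) and IFNAR2 (1.69-fold). Of the IFNAR2 exon bases, 39.1% are shared with IL10RB-DT on the opposite strand. IFNAR1, IL10RB, TYK2 and IRF3, named likewise, were not called and lay between -0.06 and 0.13.

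Partners of ABCE1 were called about as often as all genes. Of 15 genes for termination and recycling factors and for the insertion of its iron-sulphur clusters, 1 was higher, 3 were lower and 11 were not called (median -0.14). Of all genes, 15.3% were higher and 12.2% lower, 27.5% in all. HBS1L, which rescues stalled ribosomes together with PELO, fell from 52.0 ± 4.29 to 37.4 ± 1.14 CPM, and ETF1, the release factor eRF1, from 227 ± 2.72 to 185 ± 7.78 CPM (SD, n = 2 each). CIAO2B, a targeting factor for cytosolic iron-sulphur proteins, rose by 0.45 on the log2 scale (SE 0.09, edgeR adjusted p = 0.00038), and the third fall was CIAO1, named after its value was seen (-0.20, SE 0.07, edgeR adjusted p = 0.036). Without SAMD9 replicate 1 only HBS1L was lower, since ETF1 then had an adjusted p of 0.0504 and CIAO1 of 0.23. CIAO1 also missed the threshold with DESeq2 (adjusted p = 0.075), without SAMD9 replicate 2 (log2 fold change -0.20) and without empty vector replicate 1 (-0.19). With library totals 10 of the 15 were called lower, beside 5653 of all 19814 genes (2420 with TMM).

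Of 11 genes for the decay of cut RNA and for 2-5A turnover, 4 were called higher and 2 lower (median 0.16), where all genes gave 15.3% higher and 12.2% lower, so the lower calls were near the general share. XRN1, the cytoplasmic exonuclease that removes RNA from its 5′ end, rose from 40.8 ± 4.87 to 155 ± 7.23 CPM (SD, n = 2), or by 1.93 on the log2 scale (SE 0.08, edgeR adjusted p = 7.1e-15). DIS3L, a nuclease of the cytoplasmic exosome, fell from 98.1 ± 1.74 to 66.0 ± 0.192 CPM, and MAP3K20 from 88.5 ± 1.56 to 60.9 ± 0.926 CPM (SD, n = 2 each). MAP3K20 encodes a kinase activated by ribosome damage and was placed in this list although it is not an RNA decay gene. The other rises, named after their values were seen, were AKAP7 (0.98, SE 0.17), which carries a domain related to 2-5A phosphodiesterases, EXOSC10 (0.30, SE 0.08) and SKIC3 (0.29, SE 0.07). Of the EXOSC10 exon bases, 36.6% are shared with AL109811.1 on the opposite strand (0, 8, 17 and 2 counts). The part of this overlap in the EXOSC10 value was not tested. EXOSC10 and SKIC3 were not called with library totals (edgeR adjusted p = 0.25 and 0.26). Under that setting 2 genes of the list were higher and 5 lower, beside 1974 higher and 5653 lower of all 19814 genes.

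Among 8 genes for tails and decay of mitochondrial RNA, where PDE12 acts, 1 was called higher and 1 lower (median -0.01), near the 15.3% and 12.2% of all genes. PNPT1, the mitochondrial polynucleotide phosphorylase and an interferon-inducible gene, rose from 76.8 ± 5.58 to 441 ± 10.3 CPM (SD, n = 2), or by 2.52 on the log2 scale (SE 0.07, edgeR adjusted p = 1.0e-18). LRPPRC, which stabilises mitochondrial mRNAs, fell by 0.23 on the log2 scale (SE 0.06, edgeR adjusted p = 0.0061), a call lost without SAMD9 replicate 1 (adjusted p = 0.20). Its partner SLIRP was at 0.17 (SE 0.08, edgeR adjusted p = 0.12), and at -0.02 with library totals. Under library totals 3 genes of the list were lower, beside 5653 of all 19814 genes.

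**Figure D4:**
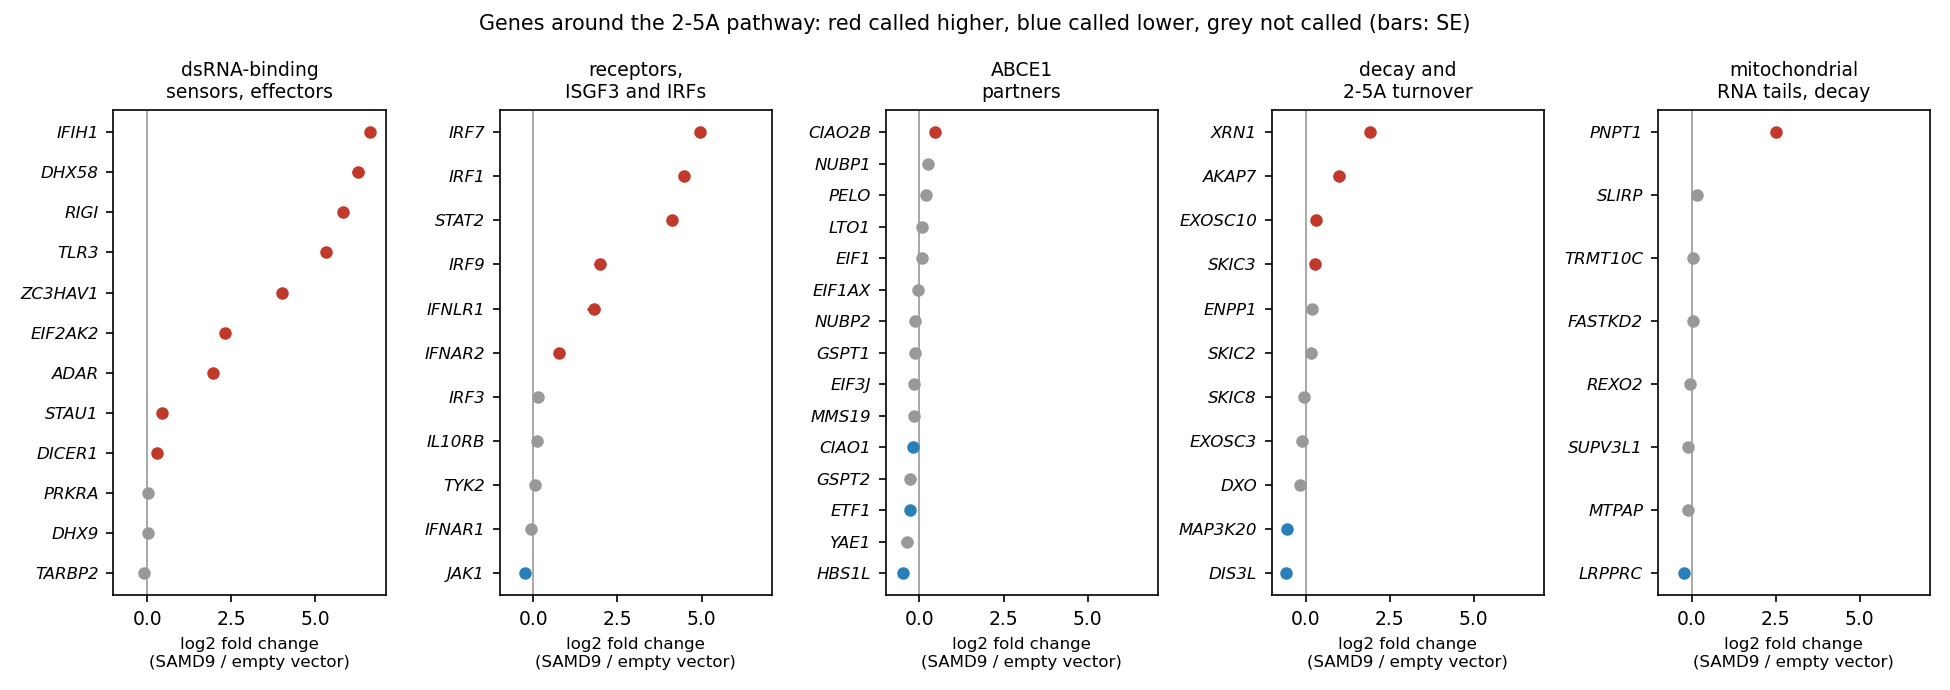
Log2 fold change with SE (often smaller than the point) of the 57 genes in the 5 lists around the 2-5A pathway, coloured by call. Rises above 4 occur among the sensors and the interferon-signalling genes, while ABCE1 partners lie between -0.47 and 0.45.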

How the data were processed

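RNA was extracted with Trizol and depleted of ribosomal RNA with KAPA RiboErase, per the labels' protocols. The deposited files give raw counts per Ensembl gene, with CPM and RPKM that the authors computed from them: deposited CPM values are counts over the library sum, and deposited RPKM values are CPM per kilobase of listed length. The submitters' processing notes name bcl2fastq, STAR (2.5.1a), Subread with featureCounts (1.4.6-p5) and build GRCh38. For their settings and strandedness, which are not given in the sources read, nothing was assumed, so reads of overlapping genes on opposite strands are treated as inseparable. Of counts from 1 to 20, 72.9% were even, against 49.7% above 1000, so low counts may be less precise than their size.

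Symbols came from a gene name table and otherwise from GENCODE 29. The main test was edgeR 4.0.16 in R 4.3.3 on raw counts (filterByExpr, minimum count 10 and total 15; TMM; glmQLFit and glmQLFTest over all 4 libraries, no covariate), tested on simulated data first. TMM factors were 1.07 and 1.07 for empty vector and 0.941 and 0.932 for SAMD9. SE is the absolute log2 fold change over the square root of F. Levels are TMM-normalised CPM, or that per kilobase. The replicates differed beyond sampling noise (chi-square per degree of freedom 9.35 and 5.00). Alternatives were library totals, DESeq2 1.42.0, no filter, a replicate block and leaving out each library. Named genes are the 6 members, the 3 lowest p-values per list, called neighbours within 100 kb of an OAS gene and the 3 genes most alike to each OAS gene. Members and lists were chosen with earlier results of these data known. The gene of RNase L itself and some genes of the lists or beside OASL are not reported here.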

Additional observations from a re-analysis of the deposited data

How the results depend on the processing

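Each of the 4 OAS genes kept its direction and call in all 8 alternatives (highest adjusted p 1.8e-19), as did ABCE1 (highest 0.0068); the 4 alternatives that omit a library leave 1 in a group, which is then assumed to vary like the other group. PDE12 kept its in 7 and was called lower with library totals (-0.30). With library totals, 1974 genes were higher and 5653 lower over the whole table, 2 members were lower, and the genes called lower numbered 2 among double-stranded RNA-binding genes, 2 among interferon signalling genes, 10 among ABCE1 partners, 5 among decay genes (2 higher) and 3 among mitochondrial RNA genes; small values changed sign for SLIRP (-0.018), PRKRA (-0.17), DHX9 (-0.18, called), IL10RB (-0.091), TYK2 (-0.15) and IRF3 (-0.060), while TARBP2 (-0.27) and IFNAR1 (-0.25) became called. Leaving out 1 library gave 1466 (without SAMD9 replicate 2) to 2279 genes lower in all. In the lists, it gave 0 to 1 interferon signalling genes lower, 1 to 2 ABCE1 partners higher and 1 to 4 lower, and 0 to 1 mitochondrial RNA genes lower. The same omissions moved log2 fold changes across 0, never with a call, for PRKRA (-0.025 to 0.068), DHX9 (-0.0095 to 0.038), TARBP2 (-0.20 to 0.021), IFNAR1 (-0.12 to 0.0099), IL10RB (-0.014 to 0.22) and TYK2 (-0.019 to 0.10). IRF3 became called without empty vector replicate 2 (0.20). DESeq2 gave 2456 genes higher and 1641 lower. By raw counts the OAS shares were 17.03% and 16.5% for OAS1 (empty vector, then SAMD9), 80.8% and 51.5% for OAS3, 0.654% and 13.5% for OAS2, and 1.48% and 18.5% for OASL. With the replicate number as a block, 2914 genes were higher and 2330 lower, and the members' calls stayed at 4 higher and 1 lower. What the replicate number marks is not stated. The deviations of same-numbered libraries from their group means had a correlation of 0.010 over all tested genes, and a batch shared by some genes was not tested. CIAO1 alone of the other named genes lost its call under the block (edgeR adjusted p = 0.054). The OAS2 control level rests on 60 and 61 counts, which limits its fold change more than that of the other members.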

Other observations

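The genes beside the OAS cluster were read from the same fit. Within 100 kb of the OAS1-OAS3-OAS2 cluster, 7 other genes were listed and 5 could be tested, of which edgeR called 3 higher and 0 lower (0 lower also at an unadjusted p under 0.05, the others having positive log2 fold changes), where 15.3% of all genes were higher and 12.2% lower. Overlapping the cluster, the antisense gene AC004551.1 (chromosome 12, 112907628 to 113017751, minus strand) was counted 2 and 5 times in controls, against 115 and 64 times under SAMD9. AC004551.1 shares 92 exon bases with OAS1 on the opposite strand, and the part of OAS reads in its counts was not tested. RPH3A, upstream of OAS1, had 45 and 36 against 88 and 82 counts, a rise of 1.05 on the log2 scale (SE 0.33, adjusted p = 0.021 by edgeR) that was not called without empty vector replicate 2 (adjusted p = 0.089), without SAMD9 replicate 2 (0.12) or with DESeq2 (0.11).

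The third called neighbour of the cluster, and a like one beside OASL, are short listed genes whose IDs are not in GENCODE 29 and whose span its models of OAS1 and OASL cover. ENSG00000276343 (chromosome 12, 112932743 to 112933222, plus strand) starts 558 bases past the listed end of OAS1, and had 2, 6, 92 and 69 counts. Its log2 fold change of 4.27 (SE 0.54) rests on few control counts, and was 3.74 without empty vector replicate 1 and 5.18 without empty vector replicate 2. ENSG00000275260 (chromosome 12, 121019111 to 121019485, minus strand) lies 807 bases past the listed end of OASL, and had 2, 4, 244 and 268 counts, an 82.2-fold rise beside 218-fold for OASL. Its counts were 1.60% and 2.67% of those of OASL with empty vector and 0.771% and 0.935% with SAMD9, so adding them would change the OASL total little.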
